A study of Homo sapiens with 3 samples.

Results

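The 9 genes described here belong to the antioxidant program of NRF2, and they were taken by symbol from a count table of 58037 genes measured in A375, an established human melanoma cell line. They are NFE2L2, which encodes NRF2 itself, and 8 of its known targets: GCLC, GCLM, SLC7A11, TXNRD1, SRXN1, NQO1, HMOX1 and OSGIN1. The study asked how melanoma cells respond to young and old fat, and it addressed oxidative stress and the glutathione balance of the exposed cells. A375 cells were kept for 24 h in serum-free DMEM (control), in young adipocyte secretome (YA-A375) or in old adipocyte secretome (OA-A375), and poly(A) RNA was sequenced from 1 library per group. The exposure time comes from the design text of the series, while the treatment protocol of the samples gives 24 to 48 h. A secretome is serum-free DMEM conditioned by subcutaneous preadipocytes that had been differentiated in culture. The control medium had not been on adipocytes, so conditioning in itself and adipocyte factors cannot be told apart against control. The number of donors behind each secretome is not given in the labels.

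NRF2 is a transcription factor of the cap'n'collar family that the adaptor KEAP1 holds in the cytoplasm and hands to a CUL3 ubiquitin ligase. Oxidants and electrophiles modify cysteines of KEAP1, NRF2 then escapes degradation, pairs with a small MAF protein and binds antioxidant response elements, where it competes with the repressor BACH1. Its activity is set mainly at the level of the protein, so the NFE2L2 transcript is a poor guide to it, and the targets are the usual readout. Melanoma cells use this program to make glutathione, to reduce thioredoxin and to clear quinones and heme, and several of the targets also answer to other factors, such as ATF4 at SLC7A11 or AP-1 at HMOX1.

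RefSeq promoter windows on GRCh38.p14, which run from 250 bases before to 50 bases after a gene's start, were found for 7 of 9 members, all but HMOX1 and SLC7A11. TXNRD1 and NFE2L2 have 2 windows each, which makes 9 windows. The core of the antioxidant response element was searched as TGACNNNGC on both strands. It was present in 3 of the 9 member windows, those of GCLM and TXNRD1, and in 13.3% of all 35116 windows. A match is a string of letters and not a measured binding site. Bases outside the windows were not searched, so a window without a match does not show that its gene lacks the element. The stretches of 120 bases below show the matching windows and, for contrast, 1 of the 3 windows of SLC3A2, the partner chain of SLC7A11, the only one of them with a match, and that of NQO1, whose window holds no match. Each is written from 5′ to 3′ on the strand of the gene, with the matches in capitals, and is given with its GRCh38.p14 position.
GCLM, chr1:93909431-93909550, minus strand: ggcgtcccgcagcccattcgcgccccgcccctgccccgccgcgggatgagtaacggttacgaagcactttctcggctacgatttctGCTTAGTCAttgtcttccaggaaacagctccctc
TXNRD1, upstream start, chr12:104215664-104215783, plus strand: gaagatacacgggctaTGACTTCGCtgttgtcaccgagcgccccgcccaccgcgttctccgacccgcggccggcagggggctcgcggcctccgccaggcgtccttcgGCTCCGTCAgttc
TXNRD1, downstream start, chr12:104286882-104287001, plus strand: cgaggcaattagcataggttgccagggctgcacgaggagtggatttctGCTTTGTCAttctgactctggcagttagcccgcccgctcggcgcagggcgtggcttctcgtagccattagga
SLC3A2, chr11:62881579-62881698, plus strand: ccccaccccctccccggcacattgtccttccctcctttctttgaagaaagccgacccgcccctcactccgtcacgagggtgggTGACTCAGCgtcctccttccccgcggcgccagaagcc
NQO1, chr16:69726561-69726680, minus strand: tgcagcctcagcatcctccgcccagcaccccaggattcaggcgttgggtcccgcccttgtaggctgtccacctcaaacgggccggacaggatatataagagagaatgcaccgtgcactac

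The match began 34 bases before the start in GCLM and 37 bases before it in the printed SLC3A2 window, and the SLC3A2 match contains the AP-1 letters TGACTCA. AP-1 letters were found in 1 of the 9 member windows, that of OSGIN1, and in 4.95% of all windows. The core of the C/EBP-ATF response element bound by ATF4, searched as TGATGCAA, was in none of the member windows and in 0.866% of all windows. At so low a share, no match in 9 windows does not set the members apart. SLC7A11 and HMOX1 have no window and were covered by neither search.

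The OA library was the smallest with 18089008 counts and control the largest with 21448195, and 14413 genes passed a floor of 20 on the average normalised count over the 3 libraries. These are the genes meant by tested, in the sense of compared. With 1 library per group no difference has a replicate check, no p-value is given, and every interval covers counting error only. Where 3 values are listed without names they belong to control, YA and OA in this order. Of 12 melanoma markers, CSPG4, PRAME, MITF and S100B were well counted in every library, SOX10 had 0 counts in all 3, and the pigment genes TYR, DCT, TYRP1 and PMEL had at most 10. Of 12 adipocyte markers, LEP, CIDEA and ADIRF were at 0 in all 3 libraries and ADIPOQ had counts of 1, 0 and 0. The summed normalised counts of that list were 743, 1343 and 549, and those of 10 fibroblast markers were 715, 905 and 660. Of the 5 adipocyte markers that were tested, all 5 were at least 1.2-fold higher than control in YA, and 2 were higher and 1 lower in OA. CIDEC had 6, 31 and 36 counts, PLIN4 had 284, 579 and 321, and LIPE had 79, 153 and 67. LPL had 353, 583 and 30 counts and GPD1 had 40, 50 and 30. Of the 5 fibroblast markers that were tested, 3 were at least 1.2-fold higher and 1 lower in YA, and 2 were higher and 2 lower in OA. Among all tested genes 17.4% were higher and 16.4% lower in YA, and 21.1% and 21.5% in OA. DCN, the matrix proteoglycan decorin, had 13, 138 and 24 counts, COL1A1 had 75, 117 and 84, and COL3A1, another fibroblast collagen, had 0, 1 and 1. The part of carried-over RNA in the member values was not tested.

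The member genes spanned a wide range of levels. As counts per kilobase of exon and per 1000000 counts of the library, NQO1 was the most abundant in control at 133.8, followed by TXNRD1 at 62.5, NFE2L2 at 13.5 and SLC7A11 at 6.54. GCLC at 5.05 (95% Poisson interval 4.73 to 5.39) and GCLM at 4.88 (4.48 to 5.30) did not differ beyond counting error in control. All values per kilobase rest on merged exons of GENCODE release 29, 8646 bases for GCLC and 5420 for GCLM. The release used for counting is not stated, so these lengths may differ from those counted, an error that the intervals leave out. HMOX1 followed at 2.46, OSGIN1 at 0.862 and SRXN1 at 0.311. NQO1, TXNRD1 and NFE2L2 kept these places at the top in YA and OA, and OSGIN1 and SRXN1 those at the bottom. In OA, GCLM at 9.91 (9.30 to 10.6) stood beside SLC7A11 at 10.5 (10.06 to 11.03), and HMOX1 at 5.08 (4.43 to 5.80) beside GCLC at 5.35 (4.995 to 5.73), with overlapping intervals in both pairs.

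Together the members took 0.1078% of all control counts (95% Wilson interval 0.1065 to 0.1092). The YA share was 0.0974% (0.0961 to 0.0988) and the OA share 0.0877% (0.0863 to 0.0891). Most of the sum was NQO1 and TXNRD1, which made up 40.4% and 38.9% of the member counts in control. Without these the other 7 members took 0.0223% of control counts (0.0217 to 0.0230), 0.0285% of YA counts (0.0278 to 0.0292) and 0.0303% of OA counts (0.0295 to 0.0311). The sum over all 9 was thus lower, and that over these 7 higher, in both secretomes. NQO1 and TXNRD1, left out of the second sum, each had lower shares in both secretomes. Among the 7, SLC7A11 took 0.00630% of control counts, 0.0119% of YA counts and 0.0102% of OA counts. In YA the shares of GCLC, HMOX1 and OSGIN1 were below control, and those of NFE2L2, GCLM and SRXN1 above it.

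**Figure D1:**
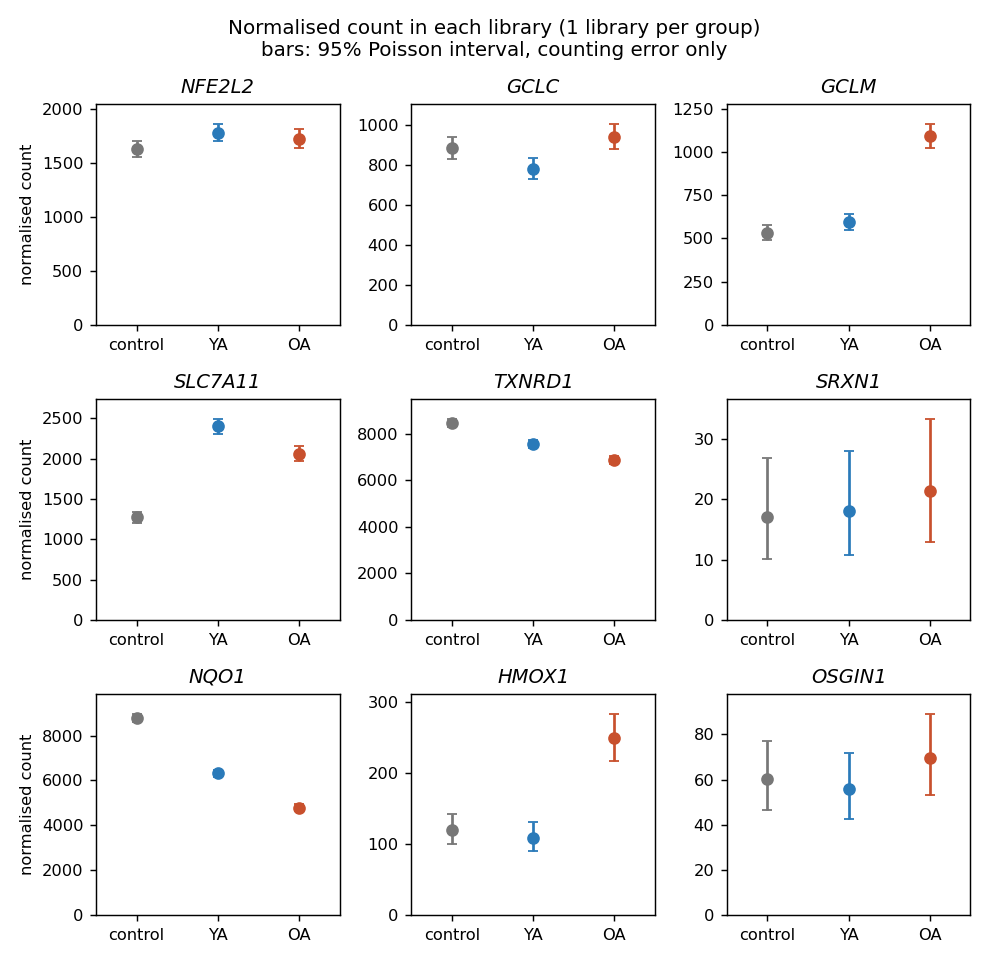
Normalised count (linear axis from 0) of each of the 9 members in the control, YA and OA libraries, 1 point per library, with bars for the 95% Poisson interval of counting error. GCLM and HMOX1 stand apart in OA alone, SLC7A11 is higher in both secretomes, and NQO1 steps down over 8802, 6321 and 4785.

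In glutathione synthesis, GCLM was higher in OA and SLC7A11 in both secretomes, while GCLC passed 1.2-fold of control in neither. GCLM (ENSG00000023909.9, GRCh38 chromosome 1, 93885205 to 93909456), the modifier subunit that raises the affinity of glutamate-cysteine ligase for glutamate, had 567, 628 and 972 counts. OA-A375 was 2.04-fold of control (interval 1.84 to 2.27) and 1.84-fold of YA-A375 (1.66 to 2.04), while YA-A375 was 1.11-fold of control (0.990 to 1.25), which spans no difference. GCLM was thus high in 1 library, that of OA. GCLC (ENSG00000001084.10, chromosome 6, 53497341 to 53616970 for version ENSG00000001084.12 of GENCODE release 29), the catalytic subunit of the same enzyme, had 937, 826 and 837 counts. Its fold change was 0.884 in YA (0.804 to 0.972) and 1.06 in OA (0.968 to 1.17) against control. The subunits therefore changed unequally. Their ratio within a library, which does not depend on how libraries are scaled, was 0.605 GCLM counts per GCLC count (interval 0.544 to 0.672) in the control library, 0.760 (0.684 to 0.844) in that of YA and 1.16 (1.06 to 1.28) in that of OA, with no overlap between the 3 intervals. Per kilobase of exon the ratio was 0.965, 1.21 and 1.85.

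SLC7A11 (ENSG00000151012.13, chromosome 4, 138164097 to 138242349), the cystine-glutamate exchanger xCT that brings in the cysteine for glutathione, had 1352, 2541 and 1838 counts. It was higher than control in both secretomes, 1.89-fold in YA (1.76 to 2.02) and 1.62-fold in OA (1.51 to 1.74), and OA stood at 0.859-fold of YA (0.809 to 0.913). SLC7A11-AS1, which shares 865 exonic bases with it on the opposite strand, had 2, 18 and 5 counts, and the use of strand in counting is not stated. SLC3A2, the heavy chain that carries xCT to the cell surface, had 3267, 6094 and 5556 counts, 1.87-fold in YA (1.79 to 1.95) and 2.03-fold in OA (1.94 to 2.12). SLC7A11 counts per SLC3A2 count were 0.414 (0.388 to 0.441) in the control library, 0.417 (0.398 to 0.437) in that of YA and 0.331 (0.314 to 0.349) in that of OA. The chains thus stayed in proportion in YA, while in OA the heavy chain was ahead. SLC3A2 also serves other amino acid exchangers.

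In the thioredoxin arm TXNRD1 was lower and SRXN1 was too scarce to compare. TXNRD1 (ENSG00000198431.15, chromosome 12, 104215779 to 104350305), the cytosolic selenoprotein that reduces thioredoxin with NADPH, had 8998, 8003 and 6116 counts. Its fold change against control was 0.892 in YA (0.866 to 0.919) and 0.810 in OA (0.784 to 0.837). TXN, the thioredoxin it reduces, had 5186, 4397 and 4836 counts, and there were 1.74 TXNRD1 counts per TXN count (1.68 to 1.80) in the control library, 1.82 (1.75 to 1.89) in that of YA and 1.26 (1.22 to 1.31) in that of OA. In OA the reductase was thus lower relative to its substrate than in both other libraries. SRXN1 (ENSG00000271303.1, chromosome 20, 646615 to 653370), sulfiredoxin, which repairs overoxidised peroxiredoxins, had 18, 19 and 19 counts. Its mean normalised count of 18.7 kept it out of the genes tested. The ratio of OA to control was 1.26 with an interval from 0.625 to 2.54, so no difference was detectable at this depth. On GENCODE release 29, 85.0% of its exonic length also lies in AL121758.1, annotated as protein-coding on the same strand, which had 4, 1 and 0 counts. How reads in shared exons were counted is not stated, and their part in the low SRXN1 counts was not tested.

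The quinone and heme enzymes went in opposite directions in OA. NQO1 (ENSG00000181019.12, chromosome 16, 69706996 to 69726951), which reduces quinones to hydroquinones and is among the most used reporters of NRF2, had 9341, 6688 and 4263 counts. It was 0.718-fold of control in YA (0.696 to 0.741) and 0.544-fold in OA (0.524 to 0.564), and OA was 0.757-fold of YA (0.728 to 0.787). The 3 libraries followed 1 order with no overlap of their intervals. HMOX1 (ENSG00000100292.16, chromosome 22, 35380361 to 35394214), the inducible heme oxygenase that frees iron, carbon monoxide and biliverdin from heme, had 127, 115 and 221 counts. OA was 2.07-fold of control (1.66 to 2.60) and 2.28-fold of YA (1.81 to 2.88), and YA was 0.908-fold of control (0.699 to 1.18). Like GCLM, HMOX1 was high in OA and not separable from control in YA. HMOX2, the constitutive isozyme, had 1476, 1307 and 1483 counts. HMOX1 counts per HMOX2 count were 0.0860 (0.0712 to 0.103) in the control library, 0.0880 (0.0721 to 0.107) in that of YA and 0.149 (0.129 to 0.172) in that of OA. The constitutive isozyme remained the more abundant in every library, also per kilobase of exon, where the ratio was 0.136, 0.139 and 0.235.

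OSGIN1 (ENSG00000140961.12, chromosome 16, 83948282 to 83966332), an oxidative stress induced growth inhibitor, had 64, 59 and 62 counts. Its fold change was 0.925 in YA (0.638 to 1.34) and 1.15 in OA (0.801 to 1.66) against control, so a difference was not detectable at this depth.

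**Figure D2:**
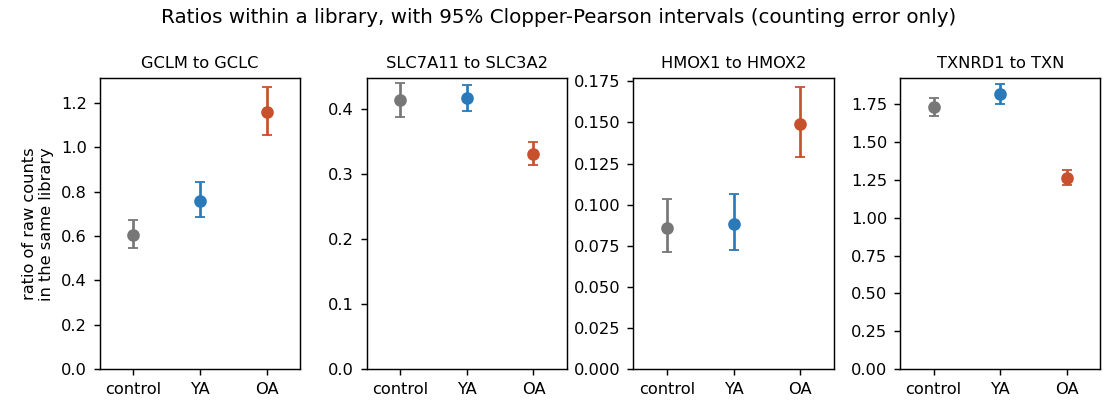
Ratio of raw counts of 2 genes within each library, with bars for the 95% Clopper-Pearson interval of counting error, on linear axes from 0. In OA, GCLM per GCLC reaches 1.16 and HMOX1 per HMOX2 0.149, above both other libraries, while SLC7A11 per SLC3A2 is 0.331 and TXNRD1 per TXN is 1.26, below both.

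The transcript of the regulator itself was nearly level. NFE2L2 (ENSG00000116044.15, chromosome 2, 177227595 to 177392697) had 1726, 1883 and 1534 counts, a fold change of 1.09 in YA (1.02 to 1.17) and 1.06 in OA (0.988 to 1.13). KEAP1, its inhibitor, had 1543, 1521 and 1436 counts and was 0.989-fold in YA (0.920 to 1.06) and 1.11-fold in OA (1.03 to 1.19). KEAP1 counts per NFE2L2 count were 0.894 (0.834 to 0.958) in the control library, 0.808 (0.754 to 0.865) in that of YA and 0.936 (0.871 to 1.01) in that of OA. BACH1, the repressor that competes for the same elements, had 1094, 991 and 808 counts, or 0.909-fold in YA (0.833 to 0.991) and 0.880-fold in OA (0.802 to 0.964). None of these 3 regulators passed 1.2-fold in either direction. The small MAF partner MAFF had 771, 745 and 702 counts and did not pass it either, while MAFK, another small MAF, had 724, 888 and 689 counts and was 1.23-fold of control in YA (1.11 to 1.36).

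In YA-A375 against control, 1 of the 8 tested members, SLC7A11, was at least 1.2-fold higher, where 17.4% of all tested genes were, and 1 member, NQO1, was at least 1.2-fold lower, where 16.4% of all tested genes were. With the counting interval wholly beyond 1.2-fold the same members counted, beside 6.03% and 4.44% of all tested genes. The median log2 fold change over the 8 tested members was -0.12, beside -0.02 over all tested genes, while the mean over the members had the opposite sign at 0.02.

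In OA-A375 against control, 3 of 8 members were at least 1.2-fold higher, HMOX1, GCLM and SLC7A11, where 21.1% of all tested genes were. NQO1 and TXNRD1 were at least 1.2-fold lower, where 21.5% of all tested genes were. With the interval wholly beyond 1.2-fold the 3 higher members remained, beside 9.04% of all tested genes, and NQO1 alone was lower, beside 9.08%. The log2 fold changes ran from -0.88 for NQO1 to 1.05 for HMOX1, with a median of 0.15 beside 0.01 over all tested genes.

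In OA-A375 against YA-A375, 4 of 8 members were at least 1.2-fold higher, HMOX1, GCLM, GCLC and OSGIN1, where 21.5% of all tested genes were. NQO1 was at least 1.2-fold lower, where 23.0% of all tested genes were. The interval lay wholly beyond 1.2-fold for HMOX1 and GCLM, beside 9.03% of all tested genes, and for NQO1, beside 10.0%. GCLC, at 1.204-fold (1.09 to 1.33), sat at the threshold. The 3 comparisons share libraries and do not count as independent.

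**Figure D3:**
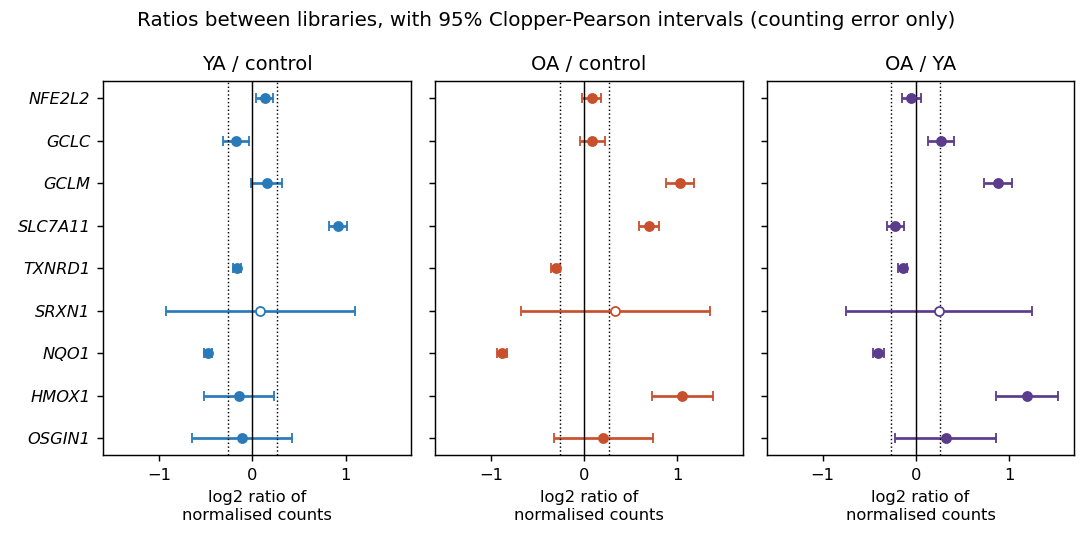
Ratio of normalised counts between libraries on a log2 axis for each member, with bars for the 95% Clopper-Pearson interval, a solid line at no difference and dotted lines at 1.2-fold. HMOX1 and GCLM lie above the upper dotted line in both OA panels, SLC7A11 above it in both panels against control, and NQO1 below the lower line in all 3; the open symbol marks SRXN1, which was not tested.

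Around the members, 138 further genes in 8 lists of the pathway and of neighbouring programs were counted, of which 126 were tested. Of these, 32 were at least 1.2-fold higher and 13 lower in YA against control, and 39 higher and 15 lower in OA against control. The lower genes made up 10.3% in YA and 11.9% in OA, beside 16.4% and 21.5% of all tested genes. In YA, 18 of the higher genes were the whole list of ATF4 stress genes, which answer to amino acid shortage. That list, like the others, was chosen with earlier results of these data known, so its count does not serve as a test. SLC7A11, a known target of ATF4 as well as of NRF2, was among the members and not in that list. ATF4 itself had 6784, 9475 and 7003 counts, 1.40-fold (1.36 to 1.45) and 1.23-fold of control (1.19 to 1.27). Outside that list, 14 of 108 tested genes (13.0%) were higher in YA and 28 of 108 (25.9%) in OA, beside 17.4% and 21.1% of all tested genes. These 108 still hold known ATF4 targets, among them CHAC1, SESN2, MTHFD2 and ALDH1L2, which were higher in both secretomes. In OA, 11 of the 18 ATF4 stress genes were higher and 2 lower. Asparagine synthetase (ASNS) was 3.86-fold of control in YA (3.602 to 4.14) and 2.47-fold in OA (2.29 to 2.66), and the stress regulator NUPR1, with only 8 counts in control, was 11.5-fold (5.61 to 27.5) and 4.32-fold (1.93 to 10.9). ATF3 was on opposite sides of control, 3.19-fold in YA (2.97 to 3.43) and 0.547-fold in OA (0.488 to 0.611).

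**Figure D4:**
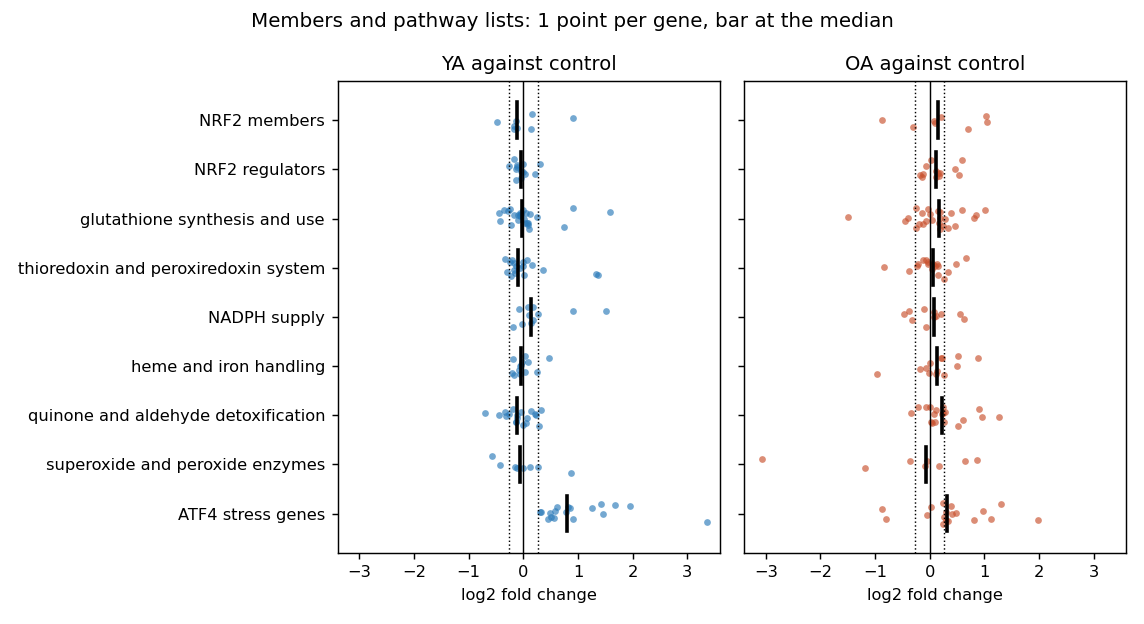
Log2 fold change of each tested gene in YA (left) and OA (right) against control, 1 point per gene and 1 row per list, with a bar at the list's median and dotted lines at 1.2-fold. The 18 ATF4 stress genes all lie beyond 1.2-fold in YA, with a median of 0.80, while the 8 tested members spread to both sides, from -0.88 to 1.05 in OA. The lists were chosen with earlier results of these data known.

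Among the regulators, SQSTM1, the autophagy receptor p62 that can draw KEAP1 away from NRF2, had 6003, 5302 and 7326 counts, 1.45-fold of control in OA (1.40 to 1.504). NFE2L1 and NFE2L3, relatives of NRF2 of which NFE2L1 answers to proteasome load, were 1.37-fold (1.32 to 1.42) and 1.497-fold (1.39 to 1.61) of control in OA. Of the 13 regulators these were the 3 that passed 1.2-fold upward in OA, and none passed it downward. In YA MAFK was the 1 higher gene of the 13, and NFE2L3 at 0.831-fold (0.766 to 0.902) the 1 lower gene. Over all tested genes 17.4% were higher and 16.4% lower in YA, and 21.1% and 21.5% in OA. The MRNIP gene shares 1582 exonic bases with SQSTM1 on the opposite strand and had 222, 354 and 217 counts.

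Of the 26 tested genes of glutathione synthesis and use, 3 were higher and 4 lower in YA and 8 higher and 3 lower in OA. In OA these were 30.8% and 11.5%, beside 21.1% and 21.5% of all tested genes, and in YA 11.5% and 15.4%, beside 17.4% and 16.4%. MGST1, a membrane-bound glutathione transferase and peroxidase, had 1782, 1847 and 2692 counts, 1.80-fold of control in OA (1.69 to 1.91). CHAC1, which degrades glutathione and is itself an ATF4 target, had 211, 630 and 233 counts, 2.99-fold in YA (2.56 to 3.52). GPX7, an oxidoreductase of the endoplasmic reticulum, went the other way in OA, with 76, 55 and 22 counts. The list thus held genes that make, use and break down glutathione with values on both sides of control.

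Of the 18 genes of the thioredoxin and peroxiredoxin system, 3 were higher and 2 lower in each secretome. These shares, 16.7% and 11.1%, were near or below those of all tested genes, 17.4% and 16.4% for YA and 21.1% and 21.5% for OA. TXNIP, the inhibitor that binds thioredoxin, had 706, 1813 and 939 counts, 2.58-fold in YA (2.36 to 2.81) and 1.58-fold in OA (1.44 to 1.75). SESN2, a leucine sensor that is induced by ATF4 and by NRF2, had 389, 974 and 455 counts, 2.51-fold in YA (2.23 to 2.83) and 1.39-fold in OA (1.21 to 1.60). SESN3, with 239, 240 and 112 counts, and the cytosolic peroxiredoxin PRDX2, with 3175, 2570 and 2036, were the 2 lower genes in OA.

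Of 11 NADPH-supplying genes, 2 were higher and 0 lower in YA, and 2 higher and 3 lower in OA. The OA shares, 18.2% and 27.3%, were near the 21.1% and 21.5% of all tested genes, and for YA the shares over all tested genes were 17.4% and 16.4%. The 2 genes higher in each secretome were the mitochondrial folate enzymes MTHFD2 and ALDH1L2, known targets of ATF4, at 1.88-fold and 2.87-fold in YA and 1.47-fold and 1.55-fold in OA. IDH2, the mitochondrial isocitrate dehydrogenase, had 851, 956 and 516 counts and was 0.722-fold of control in OA (0.646 to 0.807).

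In heme and iron handling, 1 gene of 13 tested was higher and 0 lower in YA, and 3 were higher and 1 lower in OA. The YA shares of 7.69% and 0% stand beside 17.4% and 16.4% of all tested genes. The OA shares of 23.1% and 7.69% stand beside 21.1% and 21.5% of all tested genes. BLVRB, which reduces biliverdin downstream of heme oxygenase, had 249, 296 and 385 counts, 1.84-fold in OA (1.57 to 2.17). FTH1, the ferritin heavy chain, was 1.38-fold in YA (1.34 to 1.42) and 1.43-fold in OA (1.39 to 1.48), while FTL, the light chain and like FTH1 a known NRF2 target, was 0.953-fold (0.933 to 0.975) and 1.08-fold (1.06 to 1.11). TFRC, the transferrin receptor, had 9841, 9232 and 4223 counts and was 0.511-fold in OA (0.493 to 0.530). ACO1, which as an apoprotein regulates iron-responsive transcripts, was 1.41-fold in OA (1.30 to 1.53). Processed copies of FTH1 in the genome make its counts uncertain.

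Of 19 tested quinone and aldehyde detoxification genes, 2 were higher and 4 lower in YA, and 7 were higher and 1 lower in OA. The shares higher and lower were 10.5% and 21.1% for YA, beside 17.4% and 16.4% of all tested genes, and 36.8% and 5.26% for OA, beside 21.1% and 21.5%. The aldo-keto reductases AKR1C1, AKR1C2 and AKR1C3, which are NRF2 targets in human cells, led in OA. AKR1C1 had 61, 37 and 96 counts, AKR1C2 had 204, 160 and 411, and AKR1C3 had 219, 213 and 359. Against control OA was 1.87-fold (1.35 to 2.63), 2.40-fold (2.02 to 2.85) and 1.95-fold (1.65 to 2.32) in that order, and all 3 had their lowest count in YA. The sequences of these paralogs are closely related, so reads may be split or lost between them. In OA all 3 went against NQO1, which acts on quinones as well and was lowest there. In YA AKR1C1 at 0.608-fold of control (0.393 to 0.930) and AKR1C2 at 0.787-fold (0.636 to 0.972) were lower, as NQO1 was. AKR1C3 was 0.976-fold in YA (0.804 to 1.18).

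Of 8 tested superoxide and peroxide enzymes, 2 were higher and 2 lower in YA, and 2 higher and 3 lower in OA, where 17.4%, 16.4%, 21.1% and 21.5% of all tested genes were. SOD2, the mitochondrial superoxide dismutase and a known NF-kB target, had 876, 955 and 1337 counts, 1.82-fold in OA (1.67 to 1.98). SOD3, the secreted form, had 298, 200 and 29 counts, 0.673-fold in YA (0.560 to 0.808) and 0.116-fold in OA (0.0763 to 0.170). NOX4, an oxidase that produces hydrogen peroxide, had 205, 152 and 75 counts, 0.436-fold in OA (0.330 to 0.570). PON2, an antioxidant lactonase, was 1.57-fold in OA (1.43 to 1.73). Catalase (CAT), with 2486, 2998 and 1968 counts, was 1.21-fold in YA (1.15 to 1.28) and 0.943-fold in OA (0.888 to 1.001).

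Genes with a like pattern were taken from the 11161 others whose normalised counts averaged 100 or more, by distance in the plane of the YA and OA log2 fold changes against control, which rests on 3 libraries and a shared control. Counting error does not enter the distances. HMOX1 lay nearest to FOSL1, an AP-1 subunit, with 10048, 9388 and 16531 counts, at a distance of 0.09, then to IKZF2 and NHS. On the log2 scale the counting interval of HMOX1 ran from -0.52 to 0.24 in YA and from 0.73 to 1.38 in OA. These intervals are wider than the distances, so the order of its nearest genes is not resolved. HMOX1 stood in a thinly filled part of the plane, with 1 gene within 0.1. GCLM lay nearest to GPAT3, PALLD and FGD6, with 5 genes within 0.1, and SLC7A11 to ZGPAT, DDX12P and NOV, with 8. NFE2L2 had 695 genes within 0.1, the nearest being AMZ2, NDUFAF7 and RBM43.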

How the data were processed

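The table used here, deposited by the authors, gave whole-number raw counts of 58037 genes for the control, YA and OA libraries. The submitters' processing notes name STAR 2.5.1b, featureCounts, R 3.6.1 and hg38, with no role or order; the annotation release and the use of strand are not given in the sources used here. Here counts were divided by DESeq2 1.42.0 median-of-ratios size factors (1.06, 1.06 and 0.891 for control, YA and OA; R 4.3.3), and log2 fold changes were computed with a pseudocount of 1 over genes whose normalised counts averaged 20 or more. Fold changes in the text are ratios of normalised counts. The study names DESeq2 and a cutoff of 1.2, read here as a linear fold. With 1 library per group no test was run and no p-value computed. Ratios carry 95% Clopper-Pearson, levels 95% Poisson and shares 95% Wilson intervals, which cover counting error only, as amplified reads are not independent molecules. Gene positions and exonic lengths came from GENCODE release 29 on GRCh38, which matched 57433 identifiers, 53647 of them in the same version.

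Members and lists were chosen with earlier results of these data known. Named genes were the members, 14 fixed regulators and enzymes, and in each list up to 3 further genes with the largest change whose interval lay beyond 1.2-fold, and the 3 genes nearest in pattern to HMOX1, GCLM, SLC7A11 and NFE2L2. The values of 1 of these genes are not reported here. The cell type markers named, and the overlapping genes SLC7A11-AS1, AL121758.1 and MRNIP, and MAFK, were named after their values were seen. Alternatives were edgeR 4.0.16 TMM and total-count scaling, a pseudocount of 5, other thresholds, either no filter or an average of at least 100, the mean over members for their median, and a protein-coding denominator. The procedure was tested on simulated counts. Intervals came from scipy 1.17.1, tables from pandas 2.3.3 and numpy 2.4.6 under Python 3.11.15, and plots from matplotlib 3.10.9.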

Additional observations from a re-analysis of the deposited data

How the results depend on the processing

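Across 666 recomputed values, the 46 named genes kept their log2 fold changes within the counting interval of the value reported, with no reversal, under TMM and total-count scaling, no filter, a minimum mean of 100 and a pseudocount of 5. The scalings moved the log2 median of all tested genes most under TMM in OA against control, by -0.0135. Counts of members and pathway genes stayed within 1.5 times their value under those alternatives. Thresholds changed them by construction. At 2-fold, YA against control held 0 higher and 0 lower members. OA against control held 0 lower, while GCLM and HMOX1 remained higher. OA against YA held 1 higher and 0 lower. At a log2 fold change of 1.2 the member counts were 0 in both directions of all 3 comparisons. With the interval wholly beyond 1.2-fold, 1 member was lower in OA against control and 2 were higher in OA against YA. Pathway genes higher and lower at 2-fold numbered 10 and 0 (YA against control), then 5 and 3 (OA against control), then 2 and 8 (OA against YA), and at a log2 fold change of 1.2 they were 10 and 0, 3 and 2, and 2 and 6. With the interval they numbered 21 and 2 of 126 for YA against control, beside 6.03% and 4.44% of all tested genes. For OA against control they numbered 28 and 10, beside 9.04% and 9.08%. For OA against YA they numbered 20 and 20, beside 9.03% and 10.0%. Shares of all tested genes at 2-fold and at a log2 fold change of 1.2 were not computed. The counts of members and pathway genes at these thresholds thus cannot be set against all genes. The member median in OA against YA, 0.11, was 0.24 with no filter, which adds SRXN1, -0.048 with a minimum mean of 100, which drops OSGIN1, and 0.23 as a mean. Against protein-coding counts the member share was 0.1097% for control, 0.0993% for YA and 0.0891% for OA. No paired analysis was possible because each group has 1 library. For SRXN1 and OSGIN1, depth limits what could be detected.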
